A study of Mus musculus with 12 samples.

Results

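The genes described here are the Vps, Snx and Rab genes, measured in RNA from the cortex of mice without progranulin. Many encode core machinery of endosomal sorting, but not all do. Of the Rab genes, 17 were assigned to the ER and Golgi, 8 to synaptic and secretory vesicles and 6 to traffic from the Golgi to the surface and cilium. They were chosen by symbol (Vps or Snx with a number, or Rab with a number and at most a letter) and by a mean of at least 1 CPM (counts scaled to library size) over the 12 libraries. Of the 27179 genes in the count table, 122 had such a symbol and 112 reached that level, namely 33 Vps, 28 Snx and 51 Rab genes. All 112 entered the test across 15298 genes. The lowest gene inside the limit was Rab39, at 1.34 CPM, and the highest outside was Rab7b, at 0.892 CPM. The 10 genes under the limit were Rab17, Rab7b, Snx31, Rab44, Rab25, Rab42, Rab19, Rab38, Rab20 and Snx20, and they are not described further. The symbol rule took in Vps72, which encodes the YL1 subunit of chromatin remodelling complexes and is not an endosomal protein. It stays among the 112 in all counts and medians over the members, and only its role is kept apart below.

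The study has 3 groups of 4 libraries. Wild type mice (WT) are Grn+/+, and the progranulin null mice (KO) are Grn-/-. The third group (MUT) is Grn-/-; GRNmEx5, a humanized and progranulin-deficient line in which the mouse gene is also null, so KO and MUT share the loss of mouse Grn and WT is the control of both. The labels do not give the strain, the number of lines or the regulatory sequence of the human allele, and the table has no value for that allele. WT replicate 1 was 287 days old and WT replicates 2 to 4 were 375 days old, while KO mice were 282 to 308 and MUT mice 272 to 309 days old. By label, WT replicate 1 was female and WT replicates 2 to 4 were male. KO replicates 1 and 2 were labelled male and 3 and 4 female, and MUT replicate 3 male and 1, 2 and 4 female. Within WT, labelled sex and age therefore coincide. A library's sex label was included in the model.

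Progranulin is a secreted glycoprotein that reaches the lysosome through sortilin and other receptors and is cleaved there into granulins. Endosomes decide whether such cargo goes on to the lysosome or back. Rab proteins are small GTPases that mark each compartment and recruit its effectors. Retromer (the Vps26, Vps29 and Vps35 proteins) and the sorting nexins (Snx) retrieve receptors, the ESCRT complexes sort ubiquitinated cargo into intraluminal vesicles, and the HOPS and CORVET tethers dock membranes before fusion. The GARP and EARP tethers catch carriers returning to the Golgi or recycling endosomes, and the VPS13 proteins carry lipid between membranes at contact sites. In neurons this traffic serves synaptic receptors and vesicles, and Vps35 and several other members are known from inherited neurodegenerative disease.

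Library totals ran from 16381221 to 20782195 counts, the members took 1.002% to 1.041% of counts in each library, and 111 of 112 members had at least 10 counts in every library. Mouse Grn measured 57.0 to 59.9 CPM in WT, 10.8 to 14.0 in KO and 11.5 to 15.3 in MUT, which matches the genotype labels. Markers of excitatory cortical neurons summed to 5288 to 6491 CPM in WT, 4674 to 5363 in KO and 4317 to 5442 in MUT. Several libraries stood apart. The 3 WT libraries aged 375 days had the highest level of 19 striatal projection neuron markers (summed CPM 643 to 3433 in WT, 636 to 847 in KO and 624 to 725 in MUT), WT replicate 1 among the low ones, and none of these genes was at 0 in every library. WT replicate 4, KO replicate 3 and MUT replicate 1 were high in choroid plexus markers. Hippocampal neuron markers (10 genes) summed to 256 to 288 CPM in WT, 261 to 388 in KO and 206 to 388 in MUT. As a mean log2 level of the 9 tested, relative to all libraries, KO (-0.0054 to 0.74) lay above WT (-0.78 to -0.067). MUT (-0.53 to 0.82) overlapped both. The summed level of 10 microglial markers was 399 to 452 CPM in WT, 449 to 482 in KO and 452 to 479 in MUT, and that of 10 oligodendrocyte markers 3277 to 4617, 4525 to 5415 and 3927 to 4679.7. The part of these differences in the results was not tested, other than by fits for the striatal and choroid plexus markers. Those fits leave out libraries or take a marker level as a term, and are given beside the results. In each of the 12 libraries, Xist and Y-linked reads were those of the other sex than labelled, under which a sex term in the model is the same. In whole cortex, fewer cells of a type and less RNA per cell cannot be told apart.

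The highest levels per length belonged to 5 Rab genes of synaptic vesicles, the Golgi and late endosomes, although as groups the recycling Rabs (median 44.6 CPM per kilobase) and early endosomal Rabs (30.8) were above the Golgi (17.7) and synaptic and secretory Rabs (12.0). Dividing mean CPM by the exonic length gave 378 CPM per kilobase for Rab3a, the Rab of synaptic vesicles, 243 and 218 for Rab6b and Rab6a, which act in Golgi traffic, 182 for Rab7, the Rab of late endosomes, and 130.2 for Rab2a, an ER-to-Golgi and lysosomal fusion Rab. The level of Rab7 rests on a listed exonic length of only 624 bases. At the low end stood Rab37 at 1.52, Rab32 at 0.746 and Rab39 at 0.452 CPM per kilobase, against a median of 18.8 over the members. Within the retromer core, Vps29 (73.6) and Vps35 (56.3) were above Vps26b (21.8) and Vps26a (21.3 CPM per kilobase). The VPS13 genes were low per length, from 4.19 to 8.61 CPM per kilobase, with exons of 11164 to 13371 bases. Reads of 18 members could overlap exons of another gene, 17 of them on the opposite strand, among them Rab3a, Rab6a, Rab6b, Rab5a, Rab8a and Vps26b, and whether the counting used strand is not given.

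**Figure D1:**
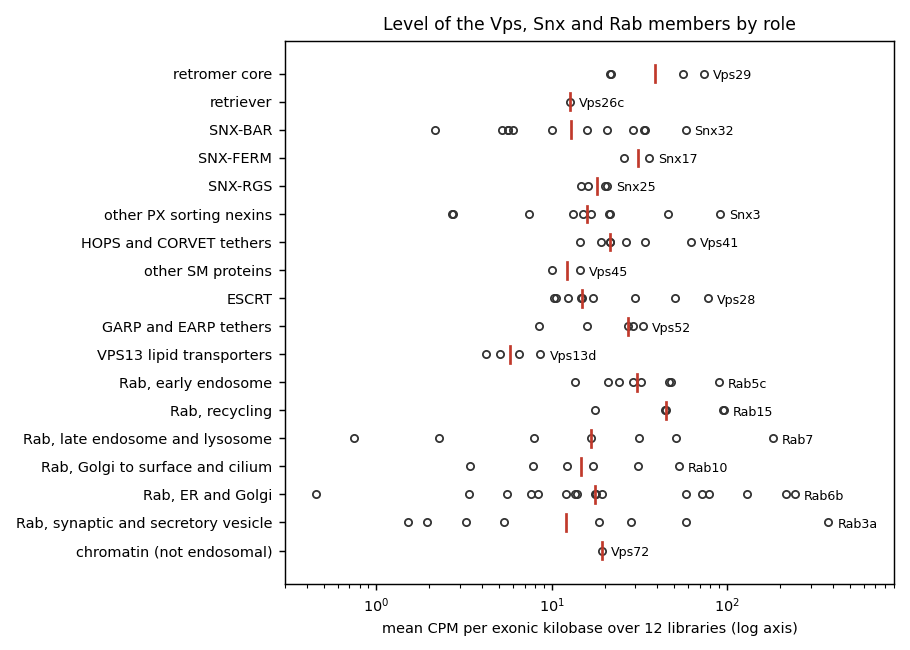
Mean level of each of the 112 members over 12 libraries in CPM per exonic kilobase (log axis), grouped by role, with the group median as a red bar and the highest member named. Levels span from 0.452 for Rab39 to 378 for Rab3a.

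The members varied little between libraries of a group. Their median coefficient of variation was 5.36% in WT, 4.69% in KO and 4.94% in MUT, against 8.98%, 7.55% and 7.65% over all genes tested. The members were held to a mean of at least 1 CPM, the genes tested to a lower limit. These sets were not matched for level. Low genes varied most, with 51.8% for Rab37 in WT and 47.2% for Rab39 in KO.

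Some members share a promoter element that the choice by symbol did not use. The CLEAR element is the site through which the transcription factors TFEB and TFE3 are known to control lysosomal genes, and it is shown because these members include tethers, retromer and endosomal Rabs together. Its palindromic form GTCACGTGAC, which reads the same on both strands, contains the E-box CACGTG and is the most frequent 10-base context of that E-box in the table, was searched from 250 bases before to 50 bases after the start site in the RefSeq promoter table of GRCm38.p6. Of the 112 members, 86 were in that table, and 6 of these held the element (6.98%), against 100 of 27025 genes (0.37%). Of 137 partner genes (defined below) in the table, 5 held it (3.65%), namely Commd8, Commd9, Igf2r, Tbc1d13 and Vac14. The E-box was counted with or without the longer element. It occurred in 12 of the 86 members (14.0%), 28 of the 137 partner genes (20.4%) and 2187 of the 27025 genes (8.09%). The 27025 genes were not limited to genes detected in cortex, while the members and partner genes were. These shares are therefore of unlike sets, and no set matched for level was searched. A match is a description of the letters, not of binding. The windows below run 5′ to 3′ on the gene's strand, with the element in capitals and 10 bases on each side.
Rab5a: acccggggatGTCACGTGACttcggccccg
Rab21: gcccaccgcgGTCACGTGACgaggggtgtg
Rab24: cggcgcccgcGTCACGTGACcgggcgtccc
Vps16: aggcggcctcGTCACGTGACcccgaagggc
Vps26a: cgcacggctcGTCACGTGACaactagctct
Vps33a: tgaacgtcccGTCACGTGACgcaggcggcg

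In GRCm38.p6 these windows lie at chr17:53479127-53479156 (Rab5a, plus strand), chr10:115315604-115315633 (Rab21, minus), chr13:55321961-55321990 (Rab24, minus), chr2:130424290-130424319 (Vps16, plus), chr10:62486970-62486999 (Vps26a, minus) and chr5:123573010-123573039 (Vps33a, minus). The element began 14 bases before the start site in Vps33a, 20 in Vps16, 32 in Rab21, 97 in Rab5a and 184 in Vps26a, and at the start site in Rab24. None of the 6 genes passed the test in any comparison. On the log2 scale, KO against WT, Rab5a was at -0.062, Rab21 at -0.011, Rab24 at 0.063, Vps16 at 0.10, Vps26a at -0.010 and Vps33a at -0.15. The 6 members with the element therefore had values on both sides of 0. Vps16 and Vps33a encode partner subunits of the HOPS and CORVET core and lay on opposite sides.

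The comparison of KO with WT asks what the loss of progranulin does to this machinery. One member passed the test, Snx13, which was lower in KO, and 111 did not. That is 0.893% of the members, against 0.49% of all genes tested (75 of 15298 at an adjusted p under 0.05, edgeR quasi-likelihood test with Benjamini-Hochberg adjustment). At an unadjusted p under 0.05 there were 20 members, 9 higher and 11 lower (17.9%, against 17.6% of all genes, 7.92% higher and 9.71% lower). The groups did not overlap for 14 members, 6 higher and 8 lower (12.5%, against 9.11% of all genes, 4.29% higher and 4.82% lower). The median log2 difference was -0.011 over the members and 0.0047 over all genes, and 94.6% of the members differed by less than 1.2-fold. The called share is that of 1 gene, and the unadjusted share was close to that of all genes.

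Snx13 encodes a sorting nexin with an RGS domain that sits at contacts of the endoplasmic reticulum with endosomes and lysosomes. It measured 94.1, 106, 97.1 and 106 CPM in WT replicates 1 to 4, 87.3, 77.4, 83.9 and 80.9 in KO and 89.3, 92.7, 92.4 and 95.4 in MUT. All 4 KO libraries were under every WT and every MUT library, and the MUT values overlapped the lowest WT library. Snx13 fell in KO by a log2 difference of -0.28 ± 0.052 (SE, n = 4 per group, edgeR adjusted p = 0.0440). Without the 3 WT libraries aged 375 days, which leaves 1 WT library assumed to vary like the others, the difference was -0.19 and no longer passed. With the striatal marker level as a term it was -0.23, without the 3 libraries high in choroid plexus markers -0.27, and with the trend on exon length removed -0.22, none of them past the threshold. The call was also lost on leaving out any single KO library, any of MUT replicates 2 to 4, or WT replicate 2 or 4 (edgeR adjusted p from 0.0564 to 0.225), so it rests on all of these libraries. Leaving out WT replicate 1 instead gave 8 called members of 112, in a fit that called 10.5% of all genes. Over the 28 alternatives the adjusted p of Snx13 ran from 0.000563 to 0.602. The Snx13 gene lies at chromosome 12, 35047189 to 35147477, + strand, in mm10.

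Other sorting nexins of the same RGS class were not called. Snx14, a close relative of Snx13 at contacts of the endoplasmic reticulum with lipid droplets, known from an inherited cerebellar ataxia, measured 67.1, 62.9, 63.4 and 66.9 CPM in WT, 57.5, 61.4, 58.3 and 58.7 in KO and 65.7, 68.8, 64.3 and 60.1 in MUT. Its KO libraries were all under its WT libraries, with a difference of -0.15 ± 0.050 (edgeR adjusted p = 0.158). Without the WT libraries aged 375 days the value was -0.19. Snx19 and Snx25 stood at -0.080 and 0.083.

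Of the retromer subunits, Vps35 had the smallest p. None was called by edgeR, while DESeq2, which called 3 members (Snx13, Vps35 and Rab34) and 4.23% of all genes, called Vps35. Vps35, the scaffold of retromer, known from a dominant form of Parkinson's disease, measured 182, 196, 193 and 195 CPM in WT, 177, 174, 164 and 168 in KO and 168, 168, 176 and 178 in MUT. Every KO and MUT library was under every WT library, and WT replicate 1 was the lowest of the WT libraries. The log2 difference in KO was -0.15 ± 0.037 (edgeR adjusted p = 0.0814, not past the threshold), a fold of 0.903. It ranged from -0.17 to -0.12 over the 28 alternative settings and was -0.13 without the WT libraries aged 375 days. Vps26a (-0.010), Vps26b (0.038) and Vps29 (-0.00011), the other retromer subunits, and Vps26c of the related retriever complex (-0.032) were all nearer 0. Vps35 was not compared with them by a test.

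The sorting nexins that bend membrane with a BAR domain had values in both directions. Snx8, which acts in traffic from endosomes to the Golgi, measured 12.0, 12.2, 12.5 and 11.2 CPM in WT, 12.8, 15.7, 16.6 and 14.0 in KO and 15.7, 13.5, 13.4 and 12.5 in MUT, so that every KO and MUT library was above WT, narrowly in MUT replicate 4 (0.29 ± 0.10 in KO, edgeR adjusted p = 0.161). Snx7, a partner of Snx4 in endosomal recycling and autophagy, measured 11.8, 17.6, 14.2 and 15.2 CPM in WT, 10.2, 12.0, 10.7 and 11.1 in KO and 10.6, 9.42, 9.98 and 14.0 in MUT. Its log2 difference of -0.39 ± 0.14 was the lowest of any member, but WT replicate 1 lay within the null groups, and without the 3 WT libraries aged 375 days the value was -0.068. Snx32, a relative of Snx6, was at 0.092. Snx1 (0.089) and Snx6 (-0.032) of the endosome-to-Golgi coat, Snx3 (-0.043), which carries retromer to early endosomes, and the cargo adaptors Snx17 (0.037) and Snx27 (-0.044) were not called either.

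Of the 7 HOPS and CORVET genes, 2 had values above 0 and 5 below. Vps33a, the subunit that assembles SNARE proteins for fusion with lysosomes, measured 135, 155, 157 and 154 CPM in WT, 131, 135, 131 and 137 in KO and 129.7, 131, 135 and 138 in MUT. WT replicates 2 to 4 were above all null libraries and WT replicate 1 was among them. The log2 difference of -0.15 (edgeR adjusted p = 0.135) was -0.015 without the WT libraries aged 375 days. Vps41, a HOPS subunit that binds lysosomal membrane, was at -0.11 and Vps39, its partner at the other end of HOPS, at -0.016. Vps11, a scaffold of both tethers, was at 0.029. Vps16 measured 68.3, 65.3, 66.8 and 65.5 CPM in WT, 71.2, 74.2, 69.5 and 68.9 in KO and 69.2, 69.1, 69.1 and 72.1 in MUT, above WT in every null library by 0.10 in KO and 0.075 in MUT, neither past the threshold.

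The ESCRT subunits, the GARP and EARP tethers and the VPS13 proteins had no called member. Of 9 ESCRT genes, 6 were above 0 and 3 below (median 0.033), with the ATPases that disassemble the coat, Vps4a and Vps4b, at 0.054 and 0.0031. The 5 GARP and EARP genes had a median of -0.016. Of the 4 VPS13 genes, 3 were below 0, and Vps13b, the member known from Cohen syndrome, had KO libraries all under WT (-0.13, edgeR adjusted p = 0.296). Vps72, the chromatin gene, measured 26.7, 26.9, 26.6 and 23.8 CPM in WT, 28.4, 29.4, 29.8 and 29.2 in KO and 29.3, 28.2, 28.3 and 26.4 in MUT, with KO above WT in every library (0.16 ± 0.056, edgeR adjusted p = 0.169).

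Of the 51 Rab genes, 22 were above 0 and 29 below in KO, and none was called by edgeR. The smallest p belonged to Rab34, known for primary cilium formation and for the position of lysosomes near the Golgi, which measured 13.2, 13.5, 12.1 and 12.5 CPM in WT, 14.7, 17.9, 19.0 and 16.1 in KO and 16.2, 15.3, 16.3 and 13.8 in MUT. Every null library was above every WT library. The log2 difference in KO was 0.39 ± 0.093 (edgeR adjusted p = 0.0758), the highest of any member. DESeq2 called Rab34. The difference was 0.37 without the WT libraries aged 375 days. Rab4a, of rapid recycling from early endosomes, measured 33.6, 29.3, 31.4 and 32.8 CPM in WT, 36.8, 35.3, 41.3 and 34.9 in KO and 34.7, 32.9, 30.4 and 36.0 in MUT, with KO above WT in every library (0.19 ± 0.063, edgeR adjusted p = 0.144). Its MUT libraries overlapped both other groups.

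None of the Rab genes that mark the main compartments was called. Rab5a of early endosomes was at -0.062 (95% interval -0.15 to 0.029), Rab7 of late endosomes at -0.0084 (-0.10 to 0.079) and Rab11a of recycling endosomes at -0.083 (-0.18 to 0.019). Rab3a of synaptic vesicles was at 0.024 (-0.073 to 0.12), and Rab6a and Rab6b of the Golgi at -0.037 (-0.16 to 0.081) and -0.10 (-0.20 to 0.0065). All 6 intervals held 0. The substrates of the Parkinson's disease kinase Lrrk2 were also not called, with Rab8a at 0.16, Rab10 at -0.054, Rab12 at 0.019, Rab29 at -0.041 and Rab35 at 0.012. Rab18, a lipid droplet and ER Rab, was at -0.052. Rab39b, known from X-linked intellectual disability with early parkinsonism, was at -0.14 (edgeR adjusted p = 0.210).

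**Figure D2:**
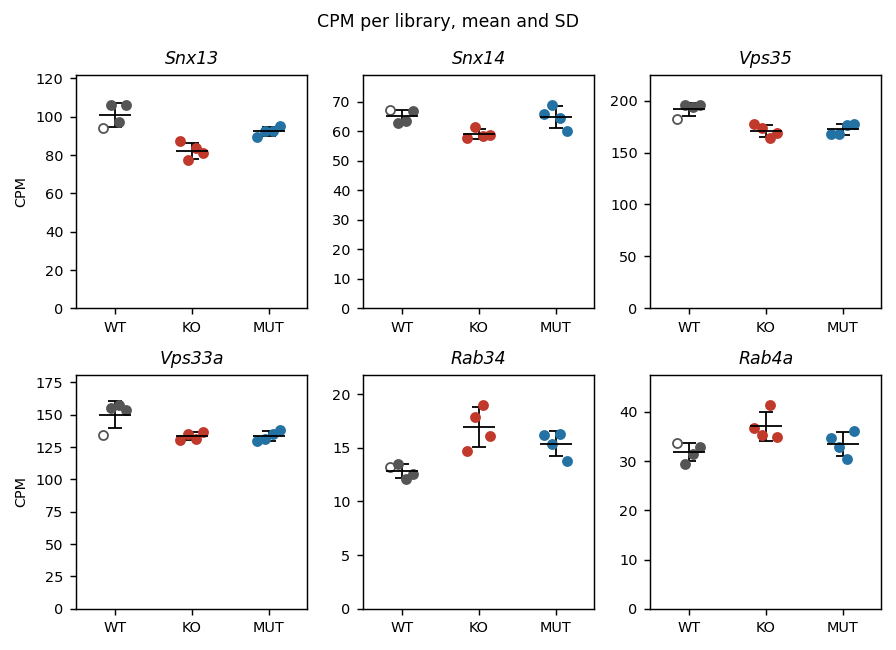
CPM of 6 members in each library (points), with the mean and SD of 4 libraries per group. The open WT point is replicate 1, aged 287 days, while the filled WT points are aged 375 days. All KO points of Snx13, Snx14 and Vps35 lie under their WT points, and all KO points of Rab34 and Rab4a lie above them.

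The comparison of MUT with WT asks the same of mice that carry the human allele on the null background, against the same WT libraries. No member passed the test, where 0.0131% of all genes did (2 of 15298, edgeR). By DESeq2 and limma-voom the count was also 0. At an unadjusted p under 0.05 there were 14 members, 6 higher and 8 lower (12.5%, against 10.9% of all genes, 4.84% higher and 6.02% lower), and 13 had groups that did not overlap, 4 higher and 9 lower (11.6%, against 7.09% of all genes, 3.37% higher and 3.72% lower). The median log2 difference was -0.0065 over the members and 0.0036 over all genes. All 9 non-overlapping lower members but Vps35 and Snx15 were Rab genes, which are 51 of the 112 members. Of the 51 Rab genes 32 were below 0, against 7489 of the 15298 genes tested.

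In both KO and MUT, 5 of the 112 members (4.46%) had all null libraries on the same side of all WT libraries, as had 3.01% of all genes tested. Since both comparisons use the same 4 WT libraries, the values are given side by side and not counted as agreement. Vps35 was at -0.15 in KO and -0.12 in MUT, Rab5b, an early endosomal Rab, at -0.077 and -0.074, Rab34 at 0.39 and 0.25, Snx8 at 0.29 and 0.17, and Vps16 at 0.10 and 0.075. In MUT the edgeR adjusted p of Vps35 was 0.395, the smallest of any member there. Snx13 was at -0.11 in MUT and Vps33a at -0.14. Vps33a in MUT was -0.012 without the WT libraries aged 375 days, and Vps35 -0.10.

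The Rab genes with the smallest p in MUT were of the Golgi and secretory vesicles. Rab6b measured 1173, 1252, 1282 and 1177 CPM in WT, 1130.5, 1144, 1069 and 1199 in KO and 1050.3, 1126, 1109.6 and 1109.7 in MUT, with MUT under WT in every library (-0.14 ± 0.051, edgeR adjusted p = 0.409). Rab36, a relative of Rab34, measured 32.4, 33.1, 33.8 and 35.5 in WT, 32.8, 28.6, 32.8 and 35.8 in KO and 25.8, 29.3, 31.0 and 29.5 CPM in MUT (-0.22). Rab27a, of secretory vesicle and exosome release, was at 0.35 with overlapping groups. Without the WT libraries aged 375 days Rab27a was at 0.11, Rab36 at -0.16 and Rab6b at -0.10. Rab40b, which carries a SOCS box, was at -0.25 and -0.14, and Snx7 at -0.37 and -0.088, first with and then without those libraries. Rab8a, of traffic to the surface and cilium, was above WT in every MUT library (0.16), and Rab11a and Rab1a were under WT in every MUT library (-0.10 and -0.11), none past the threshold.

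**Figure D3:**
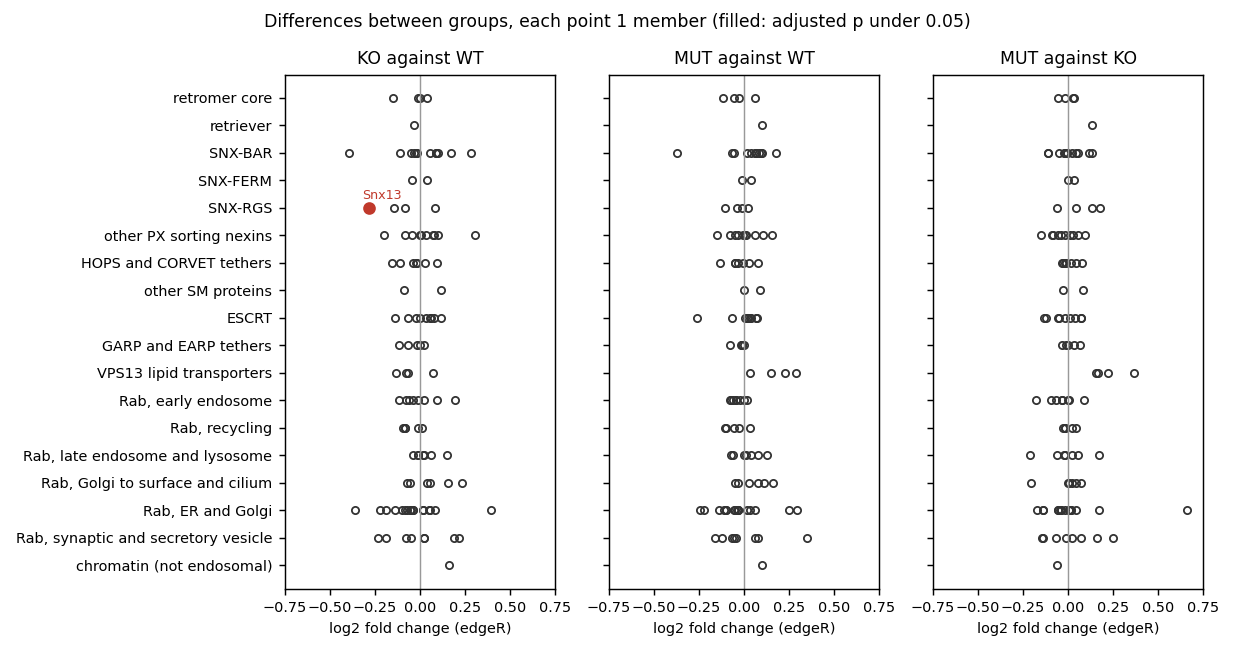
Log2 fold change of each of the 112 members (1 point each) in 3 panels, 1 per comparison, in rows by role. Only Snx13 in KO against WT is filled (adjusted p = 0.0440), and all 4 VPS13 genes lie to the right of 0 in MUT against KO.

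The comparison of MUT with KO uses no WT library in the difference itself and sets the null mice with the human allele against those without. No member passed the test, where 0.00654% of all genes did (1 of 15298, edgeR), and DESeq2 and limma-voom also called 0 members. At an unadjusted p under 0.05 there were 9 members, 5 higher and 4 lower (8.04%, against 5.67% of all genes, 3.56% higher and 2.12% lower), and 7 did not overlap, 4 higher and 3 lower (6.25%, against 5.22% of all genes, 3.37% higher and 1.85% lower). The median log2 difference was -0.0013 over the members and -0.0040 over all genes, and 98.2% of the members differed by less than 1.2-fold. KO and MUT were of similar age, and the WT libraries enter only the shared estimates of the spread and of the sex term.

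All 4 VPS13 genes had higher values in MUT than in KO, with a median log2 difference of 0.19. They encode bridge-like proteins that move lipids between organelles and are known from chorea-acanthocytosis (Vps13a), Cohen syndrome (Vps13b), early-onset Parkinson's disease (Vps13c) and ataxia (Vps13d). Vps13a measured 74.0, 70.2, 62.7 and 63.2 CPM in KO, 77.7, 74.8, 80.6 and 77.6 in MUT and 75.9, 70.0, 65.8 and 73.9 in WT. All MUT libraries were above all KO libraries, by 0.22 ± 0.061 (edgeR adjusted p = 0.717). Vps13c measured 45.0, 40.9, 43.5 and 43.6 CPM in KO, 51.1, 56.9, 65.5 and 50.1 in MUT and 54.6, 42.9, 37.1 and 47.7 in WT, again without overlap of MUT and KO (0.37 ± 0.12, edgeR adjusted p = 0.725). Vps13b was at 0.16 and Vps13d at 0.15, both with overlapping groups. WT replicate 1 was the highest WT library in Vps13a, Vps13c and Vps13d. Against WT without the libraries aged 375 days, the MUT values were -0.0017 for Vps13a, -0.0016 for Vps13c and -0.092 for Vps13d, where with all WT libraries they were 0.15, 0.29 and 0.23.

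**Figure D4:**
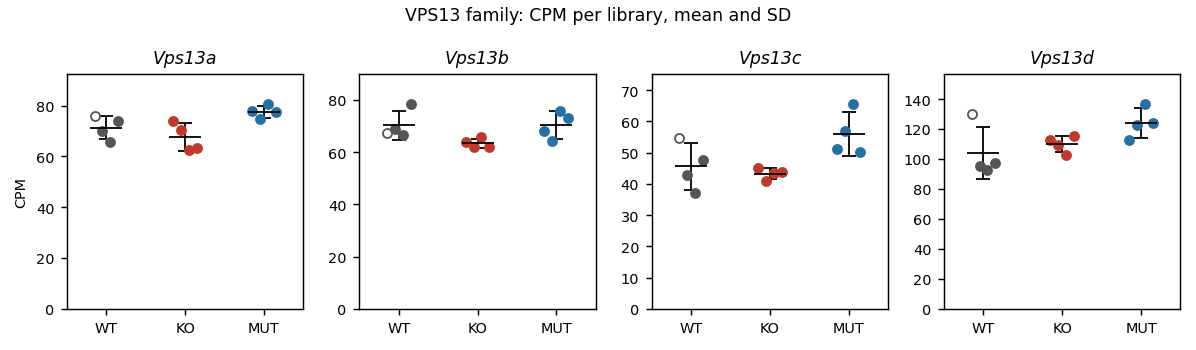
CPM of the 4 VPS13 genes in each library, with the mean and SD of 4 libraries per group and WT replicate 1 as an open point. All MUT points of Vps13a and Vps13c lie above their KO points, and WT replicate 1 of Vps13d (129.7 CPM) stands above the other WT points.

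The VPS13 genes have the longest exons of the members, and differences moved with exon length. Over the 112 members, Spearman's rho of the log2 difference with exon length was -0.29 in KO against WT, -0.018 in MUT against WT and 0.37 in MUT against KO. Over all 15298 genes it was -0.27, -0.10 and 0.26. These are correlations across genes, which share libraries and are not replicates. With that trend removed, the MUT against KO values became 0.13 for Vps13a, 0.057 for Vps13b, 0.27 for Vps13c and 0.047 for Vps13d. The size of the Vps13c value also depended on MUT replicate 3. It was 0.20 without that library, the lowest of the 28 alternatives.

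**Figure D5:**
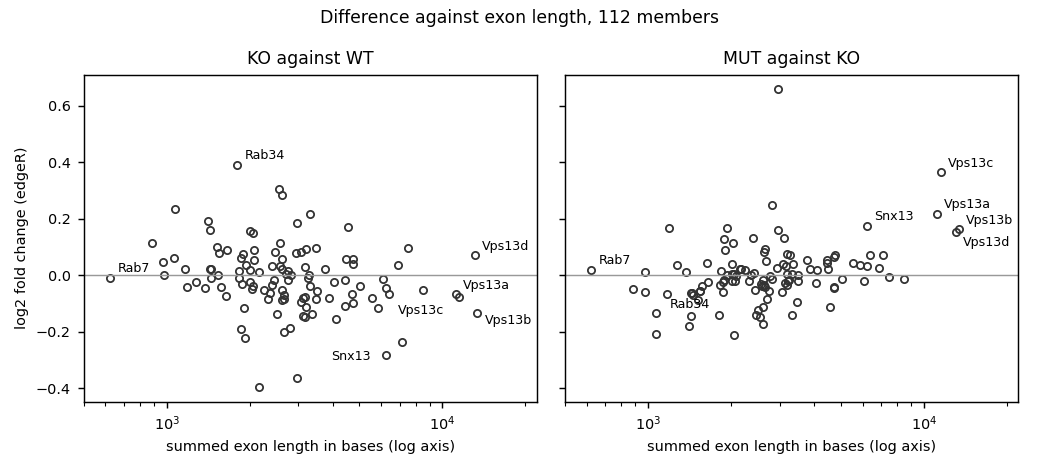
Log2 fold change of each member against its summed exon length in bases (log axis), in KO against WT and in MUT against KO. Spearman's rho is -0.29 on the left and 0.37 on the right, with the VPS13 genes at the long end.

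Among the other members of small p in MUT against KO, Snx13 was higher in MUT than in KO in every library (0.18 ± 0.052, edgeR adjusted p = 0.725), and Snx14 was at 0.13. Rab4a was at -0.18, Rab36 at -0.17 and Rab40c, which like Rab40b carries a SOCS box, at -0.14. Vps25, an ESCRT-II subunit, measured 33.7, 33.2, 33.8 and 33.2 CPM in KO and 30.6, 28.4, 32.7 and 30.4 in MUT, without overlap (-0.13). Vps35, Vps33a and Rab7 were at 0.032, 0.018 and 0.020.

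The proteins that work with the members were taken as 11 lists of 173 genes, of which 168 were tested. In KO, 3 of the 168 passed (1.79%, against the same 0.49% of all genes), 1 higher and 2 lower, and 45 had an unadjusted p under 0.05, 13 higher and 32 lower (26.8%, against 17.6%). In MUT against WT and in MUT against KO none passed (edgeR), with 29 (17.3%, against 10.9% of all genes) and 12 (7.14%, against 5.67%) at an unadjusted p under 0.05. DESeq2 called 1 gene and 0 genes in those comparisons and limma-voom called 0 in both.

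Sorl1, a sorting receptor of the sortilin family that is cargo of retromer and a known risk gene of Alzheimer's disease, fell in KO. It measured 261, 269.7, 248 and 246 CPM in WT, 198, 207, 197 and 208 in KO and 222, 254, 256 and 221 in MUT. Every KO library was under every WT library, with a log2 difference of -0.33 ± 0.058 (edgeR adjusted p = 0.0397), while MUT was at -0.089 against WT (edgeR adjusted p = 0.626) and at 0.24 against KO (edgeR adjusted p = 0.717). Without the WT libraries aged 375 days the KO value was -0.40, with the striatal marker level as a term -0.39 and with the length trend removed -0.26, none of them past the threshold. Of the 9 sorting receptors 8 were below 0 in KO, 6 of them at an unadjusted p under 0.05 (against 9.71% of all genes lower at that p), with a median of -0.16. The remaining receptor, M6pr, which carries lysosomal enzymes, was above 0 (0.086), also at an unadjusted p under 0.05. In MUT against the same WT libraries, 8 of the 9 receptors were also below 0, with a median of -0.11. Of these, 5 had an edgeR unadjusted p under 0.05 (against 6.02% of all genes lower at that p). In KO, 1083 of the 6670 genes with over 3180 bases of exon were lower at an edgeR unadjusted p under 0.05. Of the 4828 genes with up to 2075 bases, 140 were. The receptors as a list were not set against genes of like exon length. Sort1, the sortilin receptor that binds progranulin, named here outside the rule for its role, was at -0.16 (edgeR adjusted p = 0.242).

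Mical3, an effector of Rab8 in vesicle docking, also fell in KO, from 25.4, 26.9, 27.2 and 28.9 CPM in WT to 19.8, 20.0, 21.0 and 22.1 in KO, with 21.0, 25.4, 24.5 and 22.6 in MUT (-0.38 ± 0.073, edgeR adjusted p = 0.0441). Its value was -0.28 without the WT libraries aged 375 days and -0.37 with the length trend removed. Tbc1d9b, a Rab GTPase-activating protein, measured 248, 250.4, 261 and 252 CPM in WT, 285, 304, 304 and 319.6 in KO and 278, 306, 302 and 297 in MUT. It rose in KO by 0.26 ± 0.047 (edgeR adjusted p = 0.0427), and was at 0.22 in MUT. Without the WT libraries aged 375 days it was at 0.30 in KO. None of the 3 partner genes passed in the fits without those libraries, and each call was also lost on leaving out WT replicate 2 or 4, any of MUT replicates 2 to 4 or any of KO replicates 1 to 3, that of Tbc1d9b also without KO replicate 4.

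In the other lists no gene was called, and each list is represented here by its gene of smallest p over the 3 comparisons. Washc4 of the actin-nucleating WASH complex was at -0.21 in KO and 0.14 in MUT against KO, and Commd1 of the Commander complex at 0.19 in KO. Chmp2a, an ESCRT-III subunit, was at 0.19 in KO and 0.21 in MUT, Inpp4a, a phosphoinositide phosphatase, at -0.15 and -0.16, and Dennd4c, an activator of Rab10, at -0.47 and -0.049. Chm, the Rab escort protein that presents Rabs for prenylation, was at -0.15, the clathrin adaptor subunit Ap1g2 at 0.40, and the Golgi SNARE Stx16 at 0.14 in KO. With age as a term beside sex, the KO values were 0.042 for Ap1g2, 0.013 for Stx16, -0.085 for Washc4 and 0.081 for Chmp2a. Of the other ESCRT subunits 14 of 19 were above 0 in KO and of the Rab activators 14 of 20 were below it, against 7841 of the 15298 genes above 0 and 7457 below.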

How the data were processed

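RNA from mouse cortex was sequenced in 12 libraries, 4 per group. The authors deposited 1 table of raw counts per gene with exon coordinates and summed exon length, with columns laid out as by featureCounts, per the file headers. Named in the submitters' processing notes are mm10, R 4.1.2 and DESeq2 1.34.0. The aligner is not given in the sources used here and neither is the strand setting, and the deposited counts of overlapping genes can share reads.

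Counts were filtered with filterByExpr by group (minimum count 10, minimum total 15), leaving 15298 of 27179 genes, and scaled by TMM. The model was edgeR 4.0.16 (with R 4.3.3 and limma 3.58.1) on group and labelled sex, over all 12 libraries with 8 residual degrees of freedom (common biological coefficient of variation 0.101). The quasi-likelihood F test with robust empirical Bayes was used, with Benjamini-Hochberg adjustment over all genes and a threshold of 0.05. The robust option followed earlier processing of these data. DESeq2 1.42.0 and limma-voom were alternatives. A gene on the minimum of 10 counts is at 0.546 CPM in the median library. CPM use TMM-scaled library sizes, and CPM per kilobase divide them by the listed exon length. In simulated counts the fit was checked for the recovery of known changes. The 1049 genes without a symbol stayed in the totals and tests.

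By labelled age, the MUT libraries (287, 272, 309 and 282 days) are from separate animals. By labelled age or sex, WT replicate 1, KO replicate 1 and KO replicate 2 are each from another animal than the rest of their group. The labels do not say whether WT replicates 2 to 4, or KO replicates 3 and 4, are from separate animals. A p-value here measures only the spread of the libraries, part of which may be technical. No library was a copy of another (chi-square of at least 3.55 per degree of freedom in 66 pairs). The members, the 11 partner lists, their roles and the rules were chosen with earlier results of these data known. Named are, per comparison, every called member, the 6 members of smallest p in each direction, textbook members of each role, the 5 highest and 3 lowest levels, every called partner gene and each partner list's gene of smallest p. Other genes named in the text were chosen after their values were seen, for their role, their promoter element or their position outside the range of the other group.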

Additional observations from a re-analysis of the deposited data

Results flagged for a closer look

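In 177 groups of 4 libraries, over 58 named genes and the mean level of the members, 13 had a library far from the other 3 by Dixon's test, where chance flags about 1 group in 20. The values that stood apart in WT were Rab11a at 110.7 CPM in replicate 2 (nearest 108), Vps33a at 135 CPM in replicate 1 (nearest 154), Vps35 at 182 CPM in replicate 1 (nearest 193), Vps13d at 129.7 CPM in replicate 1 (nearest 97.4), Vps4b at 49.4 CPM in replicate 3 (nearest 47.0) and Vps72 at 23.8 CPM in replicate 4 (nearest 26.6). WT replicate 1 is the youngest WT library and is 3 of these 6.

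In KO they were Rab18 at 128 CPM in replicate 4 (nearest 130.1), Inpp4a at 187 CPM in replicate 3 (nearest 204), Rab31 at 72.6 CPM in replicate 1 (nearest 76.9) and Rab40b at 29.2 CPM in replicate 3 (nearest 32.5). In MUT they were Rab29 at 2.07 CPM in replicate 4 (nearest 2.80), Rab8a at 34.2 CPM in replicate 2 (nearest 35.7) and Commd1 at 14.1 CPM in replicate 3 (nearest 14.6).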

How the results depend on the processing

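The counts of called members and partner genes in KO against WT depended on the settings. Against 1 called member, 0 were called with library size alone, limma-voom, sex and age as terms, only the 2 groups compared, only animals younger than 375 days, the striatal marker level as a term, without the 3 libraries high in choroid plexus markers, and with the length trend removed. The count was 2 with no sex term, 2 with the choroid plexus marker level as a term and 3 with DESeq2, and 0 to 8 on leaving out 1 library, 8 being without WT replicate 1 (Rab34, Rab8b, Snx13, Snx7, Vps13d, Vps33a, Vps35 and Vps50). Against 3 called partner genes, DESeq2 gave 15, no sex term 8 and the choroid plexus term 7, and 0 were called with sex and age, only the 2 groups, only the younger animals, the striatal term, without the choroid plexus libraries and with the length trend removed. Leaving out 1 library gave 0 to 21, 21 being without WT replicate 1 and 5 without WT replicate 3. In MUT against WT, leaving out 1 library gave 0 to 6 members (6 without WT replicate 1: Rab27a, Rab8b, Vps13a, Vps13c, Vps13d and Vps33a) and 0 to 15 partner genes, and DESeq2 called 1 partner gene. In MUT against KO no alternative called a member.

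The median of the members in KO against WT was 0.016 with library size alone, which moves the median of all genes to 0.031. In MUT against WT it was 0.019 with library size alone, -0.032 with no sex term and -0.035 with sex and age. Over all genes the called count ran from 1 to 1620 in KO against WT (main 75, DESeq2 647), from 2 to 1030 in MUT against WT (main 2, DESeq2 52) and from 1 to 39 in MUT against KO (main 1, DESeq2 15), the 1620 and the 1030 both without WT replicate 1. None of the 4 members and partner genes called by edgeR in the reported fit (Snx13, Sorl1, Mical3 and Tbc1d9b) changed direction. Vps13a, Vps13c, Vps13d and Ap1g2, each called in MUT against WT without WT replicate 1, were below 0 with only the younger animals. Snx13 was called in 10 of 28 alternatives and ranged from -0.32 to -0.16, Rab34 was called in 4 and Vps35 in 2.

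Replicate numbers were not found to pair libraries. Of 12 same-numbered pairs, 1 had deviations correlated above 0.1 (range -0.377 to 0.289). A best correlation with the own number in both other groups was found for 0 libraries. With the replicate block, 0 members, 0 partner genes and 2 genes in all were called in KO against WT, and Snx13 was at -0.28.

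Age, the striatal markers and WT cannot be told apart beyond WT replicate 1, the single WT library of the age of the others. WT replicate 1 is also the single WT library labelled female. Fits without it, or without the older libraries, therefore also leave 1 labelled sex in WT. Fits without the older libraries assume that WT replicate 1 varies like the other groups. Low genes such as Rab39 and Rab37 are limited by counts.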
